A study of Danio rerio with 4 samples.

Results

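The provisional matrix and matricellular genes described here are *fn1a*, *fn1b*, *postnb*, *tnc*, *ccn2a*, *sparc*, *hapln1a* and *hapln1b*. They were picked by symbol as wound matrix genes of the regenerating heart. The rule uses no measured value, but it was proposed, like the lists of related genes below, with earlier results of these data known. Each symbol matched exactly 1 row among the 20984 genes of the deposited table, so the set holds 8 genes. The samples are single heart ventricles of adult AB zebrafish, all of them cryoinjured with a probe cooled in liquid nitrogen: 2 *cd74a; cd74b* mutants and 2 wild types, and no uninjured ventricle was analysed here. The mutants carry the small CRISPR-Cas9 deletions *bns454* in *cd74a* and *bns456* in *cd74b*, the paralogous genes for the MHC class II chaperone Cd74. The study's fish were 3 to 12 months old, without an age for a given ventricle. Each genotype is represented by 1 female and 1 male, but the records do not say which library came from which fish, and sex was therefore not used. The study's text gives 120 hours post-cryoinjury (hpci) as the time of collection and the series record gives 7 days, a difference that was not resolved here.

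When a ventricle is wounded, plasma proteins and secreted glycoproteins first form a soft, temporary matrix in which fibronectin fibrils serve as a substrate for cells that bind it through integrins. Matricellular proteins such as tenascin C, periostin, CCN2 and SPARC are secreted into such wounds and act on adhesion and growth factor signalling more than on the strength of the tissue. Link proteins of the Hapln family tie proteoglycans such as versican to hyaluronan. In the zebrafish heart, fibronectin and Hapln1 are known as products of the activated epicardium and periostin as a product of activated fibroblasts.

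Every value below is a normalized count, that is, the number of reads on a gene divided by a factor for the size of its library and rounded to a whole number by the authors. These values are not divided by gene length, so the order of the 8 genes by level is not an order of transcript abundance. Genotypes were compared for the 16065 genes with a mean of at least 10 by a linear model with moderated variances (limma) on log2(normalized count + 1). A gene was called lower or higher in mutants at an adjusted p under 0.05 (Benjamini-Hochberg, over all 16065 genes) if its log2 fold change was also 0.59 or more in size. All 8 genes passed the filter on the mean. Log2 fold changes are mutant over wild type on the log2(value + 1) scale, which understates the change of low genes, and are given ± SE with 2 ventricles per genotype.

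The 4 libraries summed to between 4123819 and 4382529 normalized counts. The targeted genes were lower in both libraries labelled mutant, with 408 and 401 in mutants against 837 and 913 in wild types for *cd74a*, and with 131 and 117 in mutants against 622 and 678 in wild types for *cd74b*. Markers listed for cardiac tissue were present. All 10 rows matched by the cardiomyocyte list passed the filter, with *actc1a* on 2 rows and *vmhc* on none. So did all 17 genes of the epicardium and fibroblast list. In either list 0 were called lower or higher (limma). An unadjusted limma p under 0.05 was found for 1 cardiomyocyte gene and for 3 of the other list. It was found for 4654 of all 16065 tested genes. The cardiomyocyte gene was *ttn.2*, which passed the adjusted p (limma, 0.0424) but missed the fold limit (log2 fold change -0.57). Its paralog *ttn.1*, outside the list, was called lower (-0.67, limma adjusted p = 0.0276). The summed level of the epicardium and fibroblast list was 31685 and 31737 in mutants and 29830 and 29837 in wild types. Collagen genes such as *col1a1b* (mean 4356) had the highest means in this list and weigh most in its sum. Of its 17 genes, 6 had a log2 fold change below 0. Among them were *pdgfra* (-0.73), *tbx18* (-0.61), *wt1a* (-0.59) and *tcf21* (-0.24), whereas *wt1b* (0.46) was above 0. The summed level of the macrophage list was 3792 and 3880 in mutants and 6059 and 5671 in wild types, and 3 of its 9 genes were called lower. In bulk ventricles, fewer cells of a type and less RNA per cell cannot be told apart.

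Of the 8 genes, 1 was lower in mutants and 0 were higher. *fn1b*, which encodes a fibronectin, was the gene that passed the test, at 0.64 times the wild-type mean. The paralogous *fn1a* and the link protein gene *hapln1b* also had both mutants below both wild types but did not pass it. For *postnb*, *sparc*, *hapln1a*, *ccn2a* and *tnc* the genotypes overlapped. Among all tested genes, 7.44% were called lower and 2.7% were called higher. Both mutants lay below both wild types in 29.4% of tested genes, against 3 of the 8, and above both in 30.5%, against 0 of the 8. The median log2 fold change of the 8 genes was 0.0091, beside 0.027 for all tested genes. An unadjusted limma p under 0.05 was found for 2 of the 8, namely *fn1b* and *hapln1b*. Over the whole table, 4654 of the 16065 tested genes had such a p. Counts of such genes in the lists below stand beside this share.

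**Figure D1:**
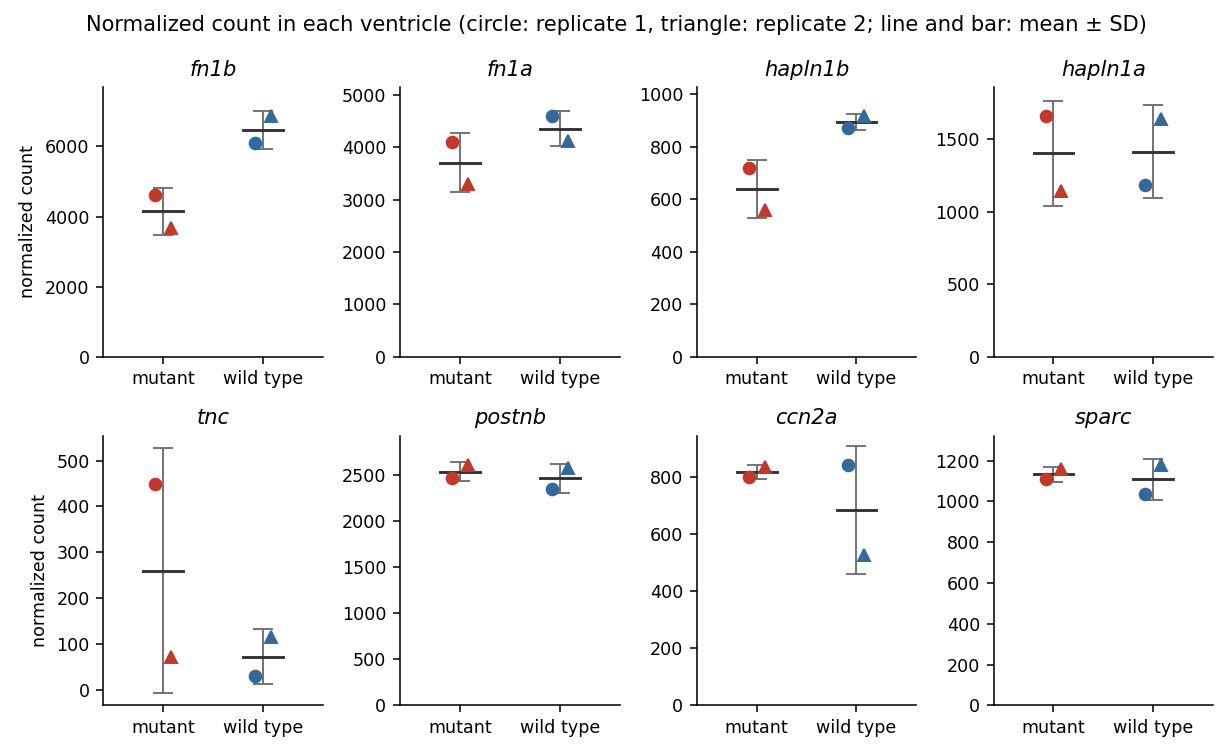
Normalized count (vertical axis, 0 included, own scale per gene) of the 8 genes in the 2 mutant (left, red) and 2 wild-type (right, blue) ventricles, with circles for replicate 1, triangles for replicate 2, and the mean ± SD of each genotype. The genotypes are separate for *fn1b*, *fn1a* and *hapln1b*, whereas for *tnc* the first mutant stands at 449 and the other 3 ventricles lie between 31 and 115.

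*fn1b* lies on chromosome 1 (danRer11, 5504128 to 5543065, minus strand). It had 4617 and 3672 normalized counts in mutants, against 6096 and 6864 in wild types. Both mutants were below both wild types, and the gap between the higher mutant and the lower wild type was wider than the gap within either genotype. The means were 4144 ± 668 in mutants and 6480 ± 543 in wild types (SD, n = 2 each), and the log2 fold change was -0.65 ± 0.16 (95% interval -1.03 to -0.27, adjusted p = 0.0467). *fn1b* had the highest mean normalized count of all 20984 genes. Its adjusted p lay just inside the threshold. The call was lost when the replicate number was used as a block (adjusted p = 0.112) and without the mean-variance trend (adjusted p = 0.164). It was also lost without the filter on low values (adjusted p = 0.102), where 0 genes of the whole table were called. When any 1 of the 4 ventricles was left out, the log2 fold change was -0.82 to -0.49 and the call was lost as well. Such a fit has 1 ventricle in a genotype and cannot decide on the call of a single gene. The last 3 bases of the gene's interval overlap *atic* on the opposite strand, a gene for an enzyme of purine synthesis with 243 and 218 in mutants and 315 and 272 in wild types.

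*fn1a*, the second fibronectin gene, lies on chromosome 9 (15362300 to 15424639, minus strand). It had 4107 and 3304 normalized counts in mutants, against 4596 and 4117 in wild types. The higher mutant was within 10 normalized counts of the lower wild type, so the genotypes were separate by less than the gap within either of them. The log2 fold change was -0.24 ± 0.16 (95% interval -0.61 to 0.13, adjusted p = 0.354). Per ventricle, the log2 ratio of *fn1b* to *fn1a* was 0.169 and 0.152 in mutants, against 0.407 and 0.737 in wild types. The ratio was lower in both mutants, with a difference of -0.41 on the log2 scale. An exact permutation test (two-sided) gave p = 0.33, the smallest value that 2 against 2 ventricles allow, so the difference between the paralogs did not pass a test that this design could not pass.

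*hapln1b*, a hyaluronan and proteoglycan link protein gene on chromosome 10 (43269918 to 43334999, minus strand), had 717 and 560 normalized counts in mutants, against 871 and 916 in wild types. Both mutants were below both wild types. The log2 fold change was -0.49 ± 0.16 (95% interval -0.88 to -0.11), which missed both limits of the call (adjusted p = 0.0965). Its paralog *hapln1a* lies on chromosome 5 (46490622 to 46505702, minus strand) and had 1657 and 1143 in mutants, against 1186 and 1637 in wild types. Here each genotype held a high and a low ventricle at nearly the same levels, and the log2 fold change was -0.018 ± 0.23 (95% interval -0.55 to 0.51, adjusted p = 0.968). The sign of this value was decided by single ventricles, as it was 0.21 without the second wild type and 0.25 without the second mutant. The log2 ratio of *hapln1b* to *hapln1a* was -1.21 and -1.03 in mutants and -0.445 and -0.837 in wild types, a difference of -0.48 (exact permutation test, two-sided, p = 0.33, again the smallest possible).

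Both link protein genes lie next to a versican gene, whose product they bind, with 0 genes between. *vcana* is 4.59 kb from *hapln1a* and *vcanb* is 6.03 kb from *hapln1b*. *vcanb* had 750 and 595 normalized counts in mutants, against 708 and 525 in wild types, which overlapped (log2 fold change 0.13 ± 0.20, adjusted p = 0.696), whereas its neighbour *hapln1b* had both mutants below both wild types. *vcana* had 30 and 59 in mutants, against 12 and 22 in wild types (log2 fold change 1.32 ± 0.52, adjusted p = 0.144). Neither versican gene passed the test.

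*postnb*, a periostin gene on chromosome 15 (32710094 to 32741733, plus strand), had 2465 and 2614 normalized counts in mutants, against 2351 and 2578 in wild types. The 4 ventricles were interleaved and close together, and the log2 fold change was 0.044 ± 0.13 (95% interval -0.27 to 0.36, adjusted p = 0.854). The interval holds no change as large as the 0.59 asked of a call. The paralog *postna*, which is not among the 8, had 1047 and 1002 in mutants, against 1345 and 1403 in wild types. Both mutants were lower there, but the call was missed (log2 fold change -0.42 ± 0.13, adjusted p = 0.0819).

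*sparc*, the gene for the collagen-binding glycoprotein osteonectin on chromosome 14 (25937948 to 25956860, minus strand, 22.9 Mb from *cd74a*), had 1108 and 1160 normalized counts in mutants, against 1036 and 1180 in wild types. The mutants lay between the wild types. The log2 fold change was 0.036 ± 0.14 (95% interval -0.29 to 0.36, adjusted p = 0.886), and the interval again holds no change of 0.59. As for *postnb*, it is a moderated interval, unadjusted for the number of genes, from 2 ventricles per genotype. The signs of *postnb* and *sparc* are not fixed by these data: under 2 of the 3 other scalings of the libraries, and without the first wild type, both were slightly below 0, between -0.085 and -0.022.

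*ccn2a*, a connective tissue growth factor gene of the CCN family, lies on chromosome 20 (25340814 to 25343490, plus strand). It had 800 and 834 normalized counts in mutants, against 843 and 527 in wild types. The second wild type stood alone below the other 3 ventricles, which lay between 800 and 843. The log2 fold change of 0.29 ± 0.22 (95% interval -0.23 to 0.81, adjusted p = 0.42) came from that ventricle, as it was -0.045 without it. Among the other tested genes of the CCN and SPARC families, the second wild type alone was the lowest ventricle for 4 of 12, beside 26.5% of all tested genes.

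*tnc*, the gene for the anti-adhesive glycoprotein tenascin C on chromosome 5 (28560847 to 28679135, minus strand), had 449 and 72 normalized counts in mutants, against 31 and 115 in wild types. The first mutant was far above the others, the second mutant lay between the wild types, and the wild types differed from each other by 3.71 times. The log2 fold change was accordingly imprecise, at 1.57 ± 0.87 (95% interval -0.46 to 3.61, adjusted p = 0.274). This SE and interval are moderated, and are narrower than the spread of *tnc* alone would give. The log2 SD of *tnc* within genotypes was 1.61, and 0.187% of the 1605 tested genes of similar mean normalized count had a larger one. With 2 ventricles per genotype and this spread, a several-fold change in *tnc* was not detectable.

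**Figure D2:**
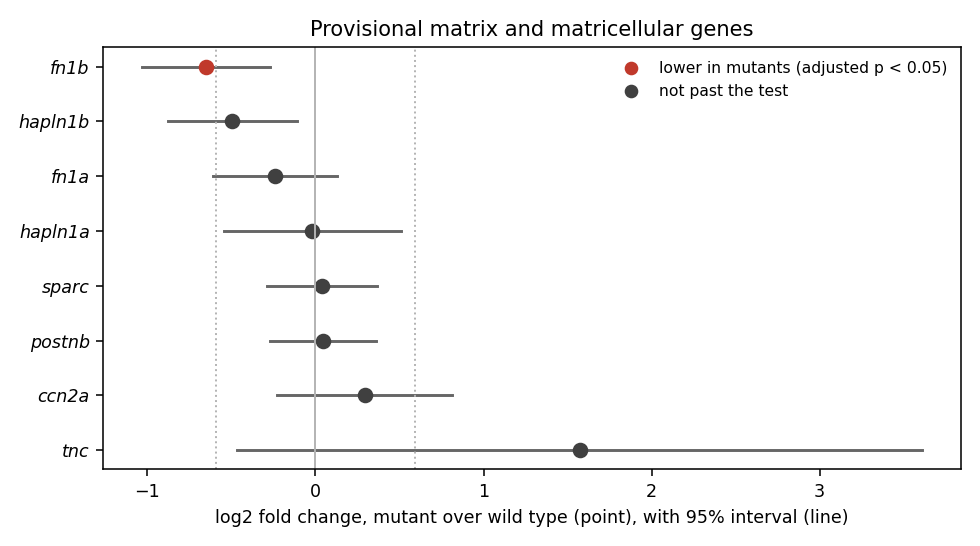
Log2 fold change, mutant over wild type (horizontal axis, points), with 95% intervals (lines) for the 8 genes, with dotted lines at the limits of -0.59 and 0.59 and the called gene in red. The intervals of *fn1b* and *hapln1b* lie below 0, those of the other 6 include 0, and that of *tnc* is the widest, from -0.46 to 3.61.

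A second row for tenascin C, listed as *TNC* (chromosome 5, 5708576 to 5831037, 22.7 Mb from *tnc*), is matched by no symbol of the lists and was examined after its values were seen. It had 219 and 179 normalized counts in mutants, against 92 and 118 in wild types. Both mutants were above both wild types, and the gene was called higher (log2 fold change 0.92 ± 0.23, adjusted p = 0.0487). The level of *tnc* and that of *TNC* therefore differed in pattern, in that the second mutant was high for *TNC* but not for *tnc*.

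The 8 genes differed in the precision with which they were measured. When the tested genes were divided by mean normalized count into 10 equal groups, 7 of the 8 were in the highest group and *tnc* was not, and the SE of those 7 did not exceed 0.23. In that group, 2.99% of genes were called lower and 3.98% higher, with a median log2 fold change of 0.14. The 20 genes with the highest means held 3 that were called lower, among them *fn1b*, and 0 called higher. Calls also varied with the span of the gene on the chromosome, as 3.42% of genes were called lower in the group with the shortest spans and 15.1% in the group with the longest, again of 10 groups. *fn1b*, with a span of 38.9 kb, was in group 8. The part of level and span in the result for *fn1b* was not tested.

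By the rule that named the genes with the most similar pattern, *creld2*, which encodes an endoplasmic reticulum protein, and *per1a*, a circadian clock gene, lay nearest to *fn1b* over the 4 ventricles. Their Euclidean distances to it, on centred log2 values, were 0.0268 and 0.0290, and 293 tested genes lay within 0.25. *creld2* had 118 and 93 normalized counts in mutants, against 159 and 176 in wild types. *per1a* had 120 and 93 in mutants, against 159 and 177 in wild types. With 4 ventricles, many genes take such a pattern.

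Genes that act together with the 8 were described by 7 lists of related matrix genes, with the 8 left out. Of the 137 tested genes of these lists, 22 (16.1%) were lower in mutants and 1 (0.73%) was higher, beside 7.44% and 2.7% of all tested genes, and their median log2 fold change was -0.13. With the *TNC* row counted among the tenascins, 2 of 138 (1.45%) were higher. The calls were unevenly spread: 9 of the 22 lower genes were matrix receptors and 7 were regulators of the Hippo and TGF-beta type. Lower calls over all tested genes varied with level, from 2.43% in group 9 of the 10 groups by mean to 14.3% in group 3. Several of the called receptors and regulators had low means, such as *itgb3a* (15.5), *tgfbr1b* (33) and *tead3b* (65). Others had high means, such as *lrp1ab* (1590) and *itgav* (865). Lower calls over all tested genes also varied with span, from 2.86% in group 3 of the 10 groups by span to 13.4% in group 9 and 15.1% in group 10. The part of level and span in these list counts was not tested. When any 1 ventricle was left out, or when no filter on low values was used, 0 of the 137 genes were called (limma), as in the whole table, where 2174 to 3373 genes without 1 ventricle and 5015 without the filter had an unadjusted limma p under 0.05.

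**Figure D3:**
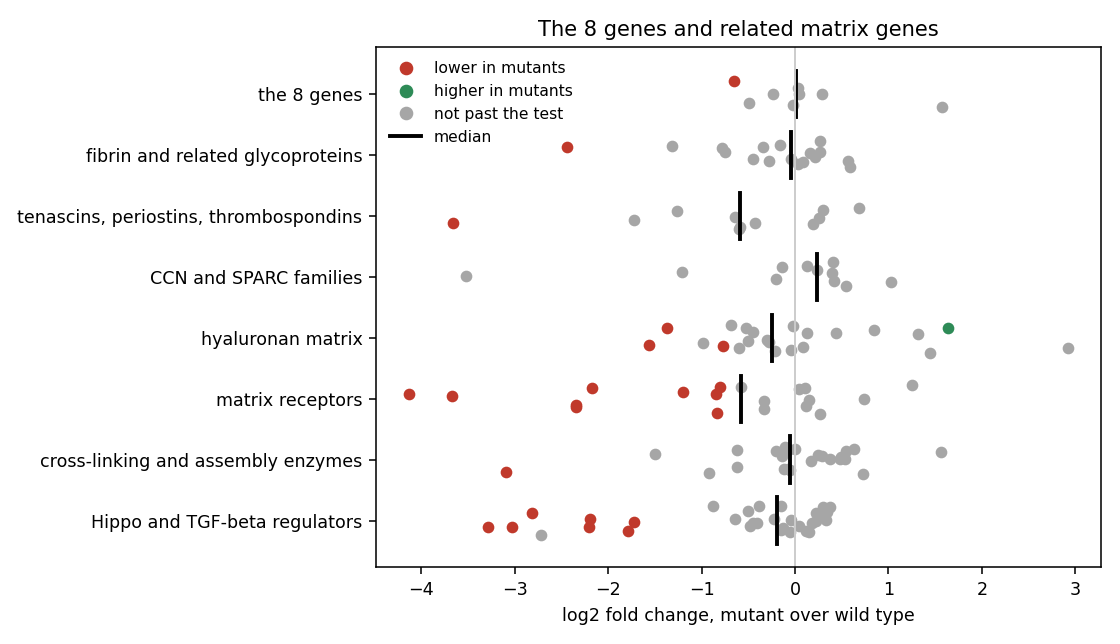
Log2 fold change, mutant over wild type (horizontal axis), of each tested gene (points) in the set of 8 (top row) and in 7 lists of related genes, with genes called lower in red, called higher in green and the remaining ones in grey. Black bars are list medians, which range from -0.59 for tenascins, periostins and thrombospondins to 0.23 for the CCN and SPARC families.

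The list of matrix receptors was drawn up around those for fibronectin, tenascin and periostin. It also holds other matrix receptor genes, such as *itgb4*, *ddr1* and *ddr2a*. In this list 9 of 19 tested genes were lower in mutants and 0 were higher, with a median log2 fold change of -0.57. *lrp1ab*, a gene for the endocytic receptor Lrp1, which takes up matrix proteins and proteases, had 1045 and 888 normalized counts in mutants, against 2087 and 2339 in wild types (log2 fold change -1.20 ± 0.15, adjusted p = 0.010). *itgb3b*, for an integrin beta3 subunit that pairs with alphav, had 93 and 53 in mutants, against 521 and 249 in wild types (-2.34 ± 0.40, adjusted p = 0.0171). *itga9*, for the alpha9 subunit of a tenascin C receptor, had 43 and 20 in mutants, against 124 and 150 in wild types (-2.18 ± 0.40, adjusted p = 0.0209). These 3 genes had both mutants well below both wild types. *itgb4* had 240 and 255 in mutants, against 410 and 484 in wild types (-0.85 ± 0.17, adjusted p = 0.0247). *itgb1b.1*, for a beta1 subunit, had 14 and 8 in mutants, against 45 and 74 in wild types (-2.34 ± 0.49, adjusted p = 0.0288). The other called genes were *itgav*, *itga4*, *itgb1b* and *itgb3a*.

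*itga5*, for the alpha5 subunit of the main fibronectin receptor, was not among them. It had 1893 and 2089 normalized counts in mutants, against 1920 and 1663 in wild types, which overlapped (log2 fold change 0.15 ± 0.14, adjusted p = 0.514). *lrp1aa* had 1576 and 1202 in mutants, against 1987 and 2111 in wild types, and missed the call (-0.57 ± 0.17, adjusted p = 0.0683), which it passed after cyclic loess scaling (-0.69, adjusted p = 0.0485). Blood cells also express Lrp1 and integrins, and several of their marker lists were lower in mutants. All 9 macrophage markers had both mutants below both wild types, and 3 were called lower. Of the 5 tested neutrophil markers 1 was called lower, namely *mpx*, with 74 and 63 in mutants and 266 and 155 in wild types, and the list summed to 822 and 787 in mutants and 1121 and 974 in wild types. Of the 4 tested T cell markers 1 was called lower, namely *cd4-1*, with 21 and 19 in mutants and 171 and 162 in wild types. Only 2 of the 4 had a log2 fold change below 0. The genotypes overlapped for *zap70*, with 31 and 29 in mutants and 11 and 50 in wild types. They also overlapped for *lck*, with 16 and 15 in mutants and 5 and 28 in wild types. The T cell list, *cd4-1* included, summed to 95 and 78 in mutants and 232 and 299 in wild types. Of the 11 rows of thrombocyte and erythrocyte markers 1 was called lower. An unadjusted limma p under 0.05 was found for 7 of them, beside 4654 of all 16065 tested genes. The called row was 1 of 2 for *hbba1*, with 137 and 121 in mutants and 263 and 326 in wild types. In the other *hbba1* row, with 200 and 229 in mutants and 213 and 274 in wild types, the genotypes overlapped. They also overlapped for the thrombocyte gene *itga2b*, with 307 and 217 in mutants and 333 and 170 in wild types. The same held for *mpl*, with 68 and 71 in mutants and 99 and 59 in wild types. For the thrombocyte gene *gp1bb* both mutants were below both wild types, with 198 and 157 in mutants and 285 and 287 in wild types. The thrombocyte and erythrocyte list summed to 2860 and 2678 in mutants and 3585 and 5693 in wild types. The part of these cells in the receptor values was not tested.

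**Figure D4:**
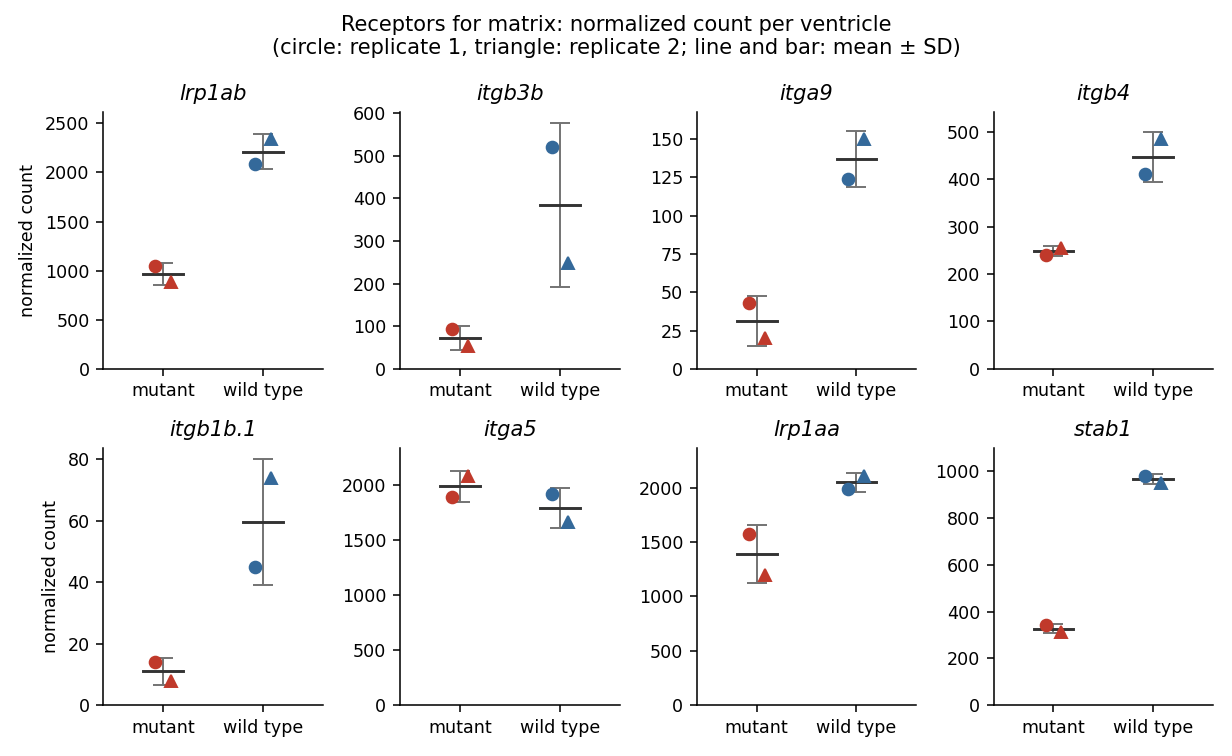
Normalized count (vertical axis, from 0, own scale per gene) of 7 receptors for matrix glycoproteins and the scavenger receptor gene *stab1* in the 2 mutant (left, red) and 2 wild-type (right, blue) ventricles, with the mean ± SD of each genotype. Both mutants are below both wild types in each gene except *itga5*, and *lrp1aa* did not pass the test.

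In the hyaluronan matrix around *hapln1a* and *hapln1b*, 3 of 22 tested genes were lower and 1 was higher in mutants. The lower ones were *stab1*, *stab2* and *cemip*. The scavenger receptor gene *stab1* had 341 and 313 normalized counts in mutants, against 981 and 950 in wild types (log2 fold change -1.56 ± 0.14, adjusted p = 0.00653). *stab2* had 120 and 156 in mutants, against 410 and 309 in wild types (-1.37 ± 0.22, adjusted p = 0.0157). *cemip*, whose product takes part in hyaluronan breakdown, had 511 and 531 in mutants, against 807 and 974 in wild types (-0.77 ± 0.15, adjusted p = 0.0256). In all 3, both mutants were below both wild types. The higher gene was *acana*, for the proteoglycan aggrecan, with 196 and 227 in mutants, against 82 and 55 in wild types (1.64 ± 0.26, adjusted p = 0.0155). *stab1* and *stab2* are known from macrophages and endothelium. Beside the macrophage markers, the endothelial marker *vwf* was called lower, with 1939 and 1710 in mutants and 3299 and 2985 in wild types, and *pecam1* was called higher, with 542 and 529 in mutants and 285 and 259 in wild types. The 10 endocardial and endothelial markers summed to 11591 and 11578 in mutants and 12722 and 12433 in wild types. The part of these cells in the values of *stab1* and *stab2* was not tested.

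The list of wound glycoproteins other than fibronectin, whose tested genes are mostly fibulins, emilins, nidogens and fibrillins, held 1 lower gene of 17 tested and 0 higher. The lower gene was *fbn2b*, a fibrillin gene, with 78 and 56 normalized counts in mutants, against 513 and 257 in wild types (log2 fold change -2.44 ± 0.35, adjusted p = 0.0119). The fibrinogen gene *fga* was tested and not called (7 and 10 in mutants, 25 and 9 in wild types), and *fgb* was under the filter. The vitronectin symbols *vtna* and *vtnb* were listed but matched no row. The basement membrane nidogen genes *nid1b* and *nid1a* did not pass the test. *nid1b* had 1497 and 1093 in mutants, against 1610 and 1631 in wild types, and *nid1a* had 1313 and 1228 in mutants, against 1425 and 1661 in wild types.

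The listed tenascins, periostins and thrombospondins held 1 lower gene of 11 tested and 0 higher, or 1 lower and 1 higher of 12 with *TNC*. Of the 11 without *TNC*, 5 had an unadjusted limma p under 0.05, all with both mutants below both wild types. Of all 16065 tested genes, 4654 had such a p. They were *thbs3b*, *thbs2b*, *comp*, *postna* and *tgfbi*. *thbs3b*, a thrombospondin gene, was low in mutants, with 3 and 1 normalized counts, against 46 and 26 in wild types (log2 fold change -3.65 ± 0.71, adjusted p = 0.0240). The thrombospondin genes with the highest values, *thbs3a* and *thbs1b*, were not called. *thbs3a* had 1773 and 2041 in mutants, against 1464 and 1738 in wild types, and *thbs1b* had 1679 and 1411 in mutants, against 1681 and 1083 in wild types. In the CCN and SPARC families, 0 of 11 tested genes were called in either direction by limma, while 3 had an unadjusted limma p under 0.05. *fstl1b* had 2091 and 2266 in mutants, against 2404 and 2631 in wild types, and *spock3* had 1660 and 1918 in mutants, against 1566 and 1699 in wild types.

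The list of enzymes that cross-link or assemble matrix also holds proteases. It had 1 lower gene of 25 tested and 0 higher. The lower gene was *adamts5*, for a protease that cleaves versican and aggrecan. It had 14 and 4 normalized counts in mutants, against 100 and 53 in wild types (log2 fold change -3.09 ± 0.63, adjusted p = 0.0271). Of the 25 tested genes, 9 had an unadjusted limma p under 0.05, beside 4654 of all 16065 tested genes. Both mutants were above both wild types for 10 of the 25 and below both for 7. *loxl2b*, of the lysyl oxidase family, had 1254 and 1273 in mutants, against 873 and 929 in wild types, and missed the call (0.49 ± 0.13, limma adjusted p = 0.059). The transglutaminase gene *tgm2b*, with 1525 and 1520 in mutants and 1445 and 1737 in wild types, and the lysyl hydroxylase gene *plod2*, with 1440 and 1280 in mutants and 1449 and 1551 in wild types, did not pass the test.

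*ccn2a* belongs to the genes that respond to TGF-beta and to the Hippo pathway effectors Yap1 and Wwtr1, which act with Tead factors. Of 32 tested regulators of this type, 7 were lower in mutants and 0 were higher. The list mixes activators of this response with inhibitors such as *lats2*, so this count sets no direction for *ccn2a*. The values of *ccn2a* itself overlapped between the genotypes. The type I receptor gene *tgfbr1b* had 7 and 4 normalized counts in mutants, against 59 and 62 in wild types (log2 fold change -3.28 ± 0.49, adjusted p = 0.0134). *wwtr1* had 38 and 13 in mutants, against 195 and 185 in wild types (-3.03 ± 0.47, adjusted p = 0.0143). *tead3b* had 23 and 10 in mutants, against 118 and 109 in wild types (-2.82 ± 0.44, adjusted p = 0.0143). These are low values, and in each the mutants were below both wild types. The kinase gene *lats2* had 139 and 60 in mutants, against 482 and 372 in wild types (-2.20 ± 0.37, adjusted p = 0.0172), and the ligand gene *tgfb2* had 134 and 49 in mutants, against 426 and 328 in wild types (-2.19 ± 0.43, adjusted p = 0.0243). *srfa* and *mrtfba* were called as well. *yap1* was not, with 889 and 881 in mutants and 775 and 744 in wild types (0.22 ± 0.13, adjusted p = 0.314), nor was *amotl2a*, with 1017 and 778 in mutants and 1108 and 880 in wild types.

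The annotation in the table places *fn1a* and *tnc* in the KEGG term ECM-receptor interaction and gives no KEGG term for the other 6. Of the 53 other tested genes of this term, 11 (20.8%) were called lower and 1 (1.89%) was called higher, namely *TNC*. Among all tested genes, 7.44% were called lower and 2.7% higher. The median log2 fold change of the 53 was -0.22. Several of the lower genes, such as *itgav*, *itgb3b* and *itga9*, are receptors already counted above. The part of level and span in this count was not tested. The 2 annotated members were not called.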

How the data were processed

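RNA of 4 single ventricles was sequenced by the authors (VAHTS stranded mRNA libraries). Per the labels and methods, reads were trimmed with Trimmomatic 0.39, mapped by STAR 2.7.9a to the danRer11 genome with Ensembl release 104 genes, counted with featureCounts 2.0.2 and normalized with DESeq2 1.30.0, and reads on more than 1 gene or region were left out. Whether counting used strand, and whether duplicate reads were removed, is not given in the sources used here. The values deposited by the authors are treated as a score, a normalized count rounded to a whole number, so no count test was run and the depth in reads is not known. The highest single value was 6864, and the short, abundant cardiac transcript *myl7* was listed at 1043 and 1209 in mutants and 970 and 1040 in wild types, below the long *ttn.2* with 3659 and 4094 in mutants and 5681 and 5793 in wild types. The part of this in the results was not tested. The number of other columns of sample values was 0, and the authors' fold changes and p-values were not used.

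Genotypes were compared with limma 3.58.1 in R 4.3.3 (mean-variance trend, pseudocount 1, minimum mean 10), with Benjamini-Hochberg adjustment. The test was checked on simulated data, in which genes of equal mean had equal spread, unlike the measured genes. Permutation tests used scipy 1.17.1 in Python 3.11.15. Limma p-values rest on the spread between 2 animals per genotype, moderated by a spread borrowed from genes of similar level. The borrowed part had a weight of 5.33 degrees of freedom in the main fit. Groups and replicate numbers come from the sample records. Same-numbered ventricles are different fish, and their deviations from the group means correlated at -0.066 across genes, so no block was used. The 8 members and the lists were chosen with earlier results of these data known. Besides the members, *cd74a* and *cd74b*, the rule for named genes took from each list the called genes (at most the 5 with the smallest p) and the 2 uncalled genes with the highest mean, and the 2 genes nearest to a called member. Genes outside it (*atic*, *postna*, *vcana*, *TNC*, *fga*, *fgb*, *ttn.1*, *loxl2b*, *thbs2b*, *comp*, *tgfbi*, the remaining called receptors and regulators, and the cell markers named singly) were chosen after their values were seen. The alternatives tried were a pseudocount of 0.1 or 5, a minimum mean of 50 or none, no trend, 3 scalings, a replicate block, leaving out each ventricle and other fold limits. Sequences are not shown.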

Additional observations from a re-analysis of the deposited data

How the results depend on the processing

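The lower call of *fn1b* held with pseudocounts of 0.1 and 5, a minimum mean of 50, all 3 scalings and no fold limit. It was lost (0 members lower) without a filter (log2 fold change -0.65, adjusted p = 0.102), without the trend (-0.65, adjusted p = 0.164), at a fold limit of 1 (-0.65) and when any 1 ventricle was left out (-0.82 to -0.49, 0 to 0 members). With a replicate block, 0 members were lower (*fn1b* -0.65, adjusted p = 0.112), and 740 genes were lower and 215 higher, against 1196 and 434. Over all genes, 0 were lower and 0 higher without a filter (5015 with an unadjusted limma p under 0.05, smallest adjusted p = 0.0518), 461 and 82 without the trend, and 238 higher at a fold limit of 1. Without any 1 ventricle, 0 genes were called in either direction (2174 to 3373 with an unadjusted limma p under 0.05), a fit that lends the lone ventricle the spread of the other genotype. Of the related genes, 0 and 0 were called without a filter and without any 1 ventricle, 4 lower and 0 higher without the trend, 3 higher with a pseudocount of 5, and 2 higher after scaling to the total or by cyclic loess, and also with the *TNC* row counted, an alternative chosen after seeing the data. *postnb* changed sign to -0.024 with upper quartile scaling and -0.065 with cyclic loess, and *sparc* to -0.032 and -0.085. Leaving out 1 ventricle at a time gave log2 fold changes of -0.022 to 0.11 for *postnb*, -0.058 to 0.13 for *sparc*, -0.045 to 0.63 for *ccn2a*, -0.29 to 0.25 for *hapln1a*, -0.13 to 0.51 for *thbs1b*, -0.084 to 0.35 for *vcanb*, -0.19 to 0.075 for *tgm2b* and -0.34 to 0.043 for *amotl2a*. None of these 8 genes was called in any fit, and the causes of the sign changes were not tested. The scalings moved the median log2 fold change of all genes by less than 0.1.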

Other observations

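3 further values were looked up after the results were seen. *zgc:162952*, 0.977 kb from *tnc* on the same strand, had 166 and 3 normalized counts in mutants and 58 and 52 in wild types, so that the first mutant was the highest ventricle for both neighbours. The integrin beta1 gene *itgb1a* had 1174 and 1289 in mutants and 140 and 1892 in wild types, with the first wild type far below the other 3 ventricles. The basement membrane gene *hspg2*, for perlecan, had 265 and 114 in mutants and 1008 and 923 in wild types (log2 fold change -2.46 ± 0.35, adjusted p = 0.0119).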
